A study of Mus musculus with 10 samples.

Results

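The 6 genes described here, *Hes1*, *Hes5*, *Hes6*, *Hey1*, *Hey2* and *Heyl*, encode basic helix-loop-helix factors of the Hairy/E(spl) family. An ATAC-seq or H3K4me3 peak was given to a gene where it lay in the gene body or within 50 kb of it and where the nearest protein-coding transcription start site (TSS) was that of the gene. Peaks of the 6 ATAC-seq libraries that overlapped or abutted were merged, which gave 40 sites at the 6 genes out of 108367 in the genome. Primary neural stem and progenitor cells (NSPCs) came from the brains of C57BL/6 mice at postnatal day 5 and were used at early passage. Such cultures hold stem cells together with progenitors, and peaks average over both. The medium of activated NSPCs held FGF2 and EGF, both at 20 ng/ml. Quiescent NSPCs were kept in FGF2 and 25 ng/ml of BMP4 with EGF left out, for 4 days according to the labels. Reactivated NSPCs had the same 4 days of BMP4 and then 9 to 12 days of growth medium. Each state had 2 ATAC-seq libraries, and H3K4me3 ChIP-seq, which marks active and poised promoters, had 1 library each for quiescent and activated NSPCs.

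Ligands of the Delta and Jagged families on a neighbouring cell bind Notch receptors, whose intracellular domain is then released by gamma-secretase. In the nucleus this domain joins the DNA-binding protein RBPJ and Mastermind proteins at the promoters and enhancers of target genes, with the Hes and Hey genes among the best known. Their products are transcriptional repressors. In the neural stem cell lineage HES1 and HES5 hold down proneural genes, and HES6 is known to counteract HES1. *Hey1* and other members also respond to BMP signalling, the pathway that BMP4 engages.

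The peak lists held 47037 to 60355 peaks on autosomes, X and Y in the quiescent and activated libraries, and 106270 and 106830 in the reactivated libraries. The members had 27 and 27 peaks in the quiescent libraries, 27 and 23 in the activated libraries, and 44 and 48 in the reactivated libraries. Fold enrichment, the value used here, is the pileup of reads at a summit over the local background of the same library. The lowest background pileup was 6.01 to 12.1 reads and the lowest pileup that was called was 16 to 25 reads, so a site below that level was not detectable. Where the local background was higher, more reads were needed. At Hes5 +0.5 kb, 93 reads over 40.4 gave a fold enrichment of 2.27 in the first reactivated library. Promoters of the NSPC markers looked up (*Sox2*, *Nes*, *Pax6* and others) had a peak for 9 or 10 of 10 genes in every library. Neuronal markers had 3 or 4 of 5, with none at *Dcx*. None of 3 endothelial markers had a promoter peak in any library, oligodendrocyte markers had 0 or 1 of 4, and microglial markers 0 or 1 of 5. Of the astrocyte markers, 1 to 3 of 4 had a peak and *Gfap* had none in any library.

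Of the 40 sites, 18 were shared (a peak in at least 1 quiescent and 1 activated library), against 32.0% of all sites. A peak in both quiescent libraries and in no activated library was found at 2 sites (6.26% of all sites), and the opposite at 3 sites (4.24%). A further 7 sites had a peak in a single quiescent or activated library (20.8%), and 10 had peaks in reactivated NSPCs alone (36.7%). A peak in all 6 libraries was present at 14 sites (21.3%). *Heyl* had the most sites with 12, followed by *Hes1* with 8, *Hes6* and *Hey1* with 6 each, *Hes5* with 5 and *Hey2* with 3. Both quiescent-specific sites lay upstream, at *Hes5* and *Heyl*, and all 3 activated-specific sites belonged to *Heyl*. Sites are named below by gene and by the distance of their midpoint from the TSS, with a minus sign for upstream.

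**Figure D1:**
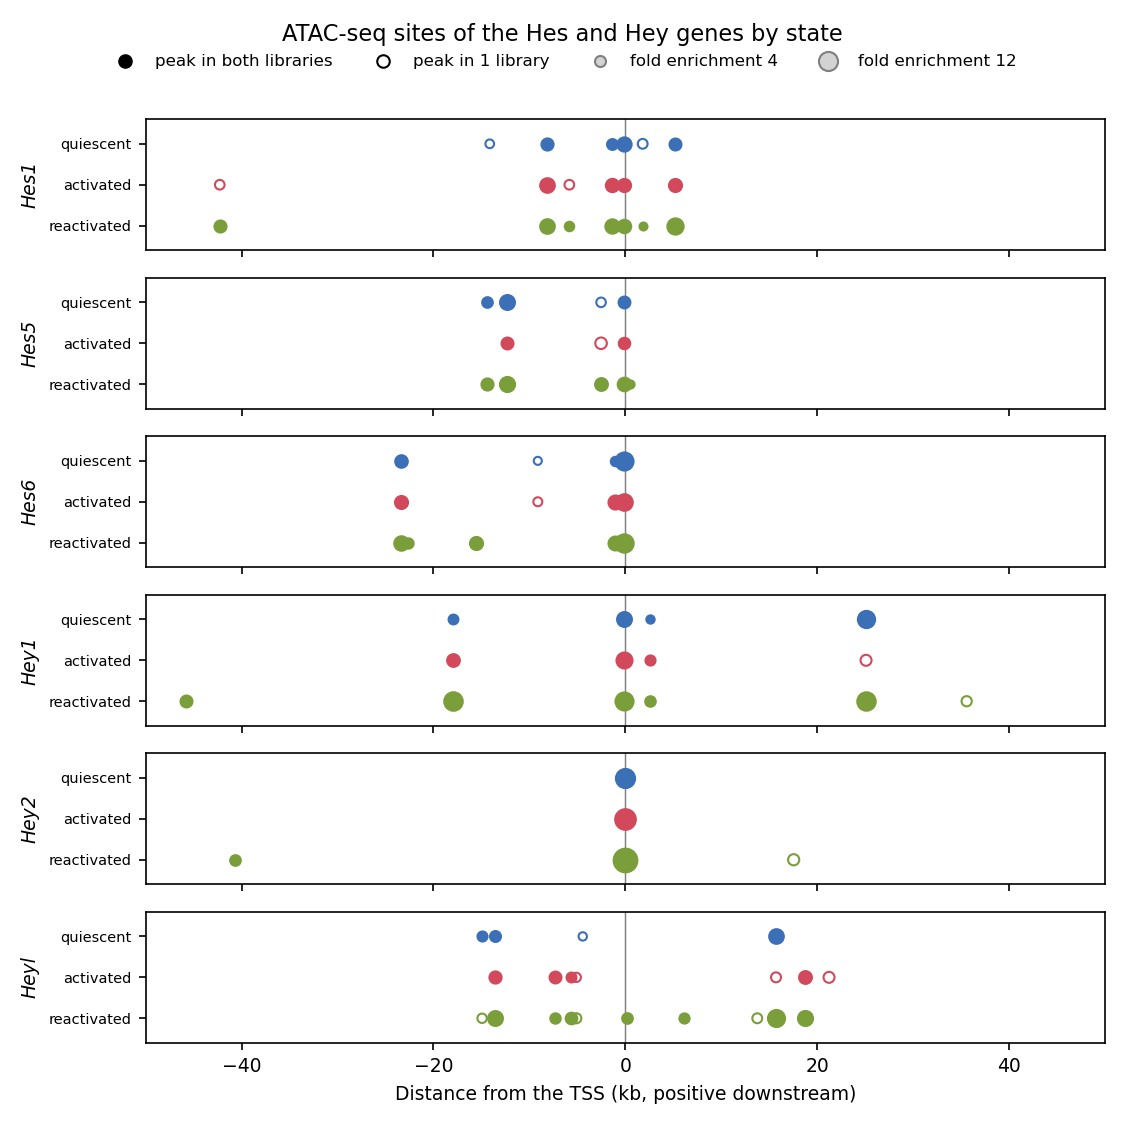
ATAC-seq sites of the 6 genes by distance of the site midpoint from the TSS (x axis, kb) and by state (rows). The area of a circle is the mean fold enrichment over the libraries with a peak, filled circles have a peak in both libraries of the state and open circles in 1. *Hey2* had 1 site in quiescent and activated NSPCs, at its TSS, whereas *Heyl* had 12 sites spread over both sides of its start.

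*Hey2*, a repressor known from heart and vessel development, had the highest promoter fold enrichment of the 6 genes. Its site at chr10:30842332-30843344 (mm10), over the first exon, had a fold enrichment of 11.8 and 12.4 in quiescent libraries, 15.3 and 12.7 in activated libraries and 18.1 and 18.8 in reactivated libraries. The reactivated libraries were the highest as deposited, and the quiescent values lay below both other states. With each library centred on its own median, reactivated NSPCs stood at -0.25 from activated and -0.26 from quiescent NSPCs (limma, adjusted p = 0.18 and 0.12), and the quiescent and activated levels were 0.01 ± 0.13 apart (log2, SE), with a 95% interval from -0.26 to 0.29 (limma, adjusted p = 0.96). In a fit with missing peaks filled in (below), both differences of the reactivated libraries were called lower, at -0.58 and -0.45 (limma, adjusted p = 0.0023 and 0.015). No value of this site was filled there, but the filled values of other sites entered the centring. Over the 11451 genes with a promoter peak in all 6 libraries, the mean level of *Hey2* stood at percentile 94.2. The pileup of reads gave another order, since it was higher at the *Hey1* promoter in every quiescent and activated library. In the first reactivated library it was 329 reads at *Hey1*, over a local background of 28.3, and 315 at *Hey2*, over 16.4.

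*Hes6*, the antagonist of HES1, had 2 promoter sites whose values ran in opposite directions between quiescent and activated NSPCs. At the TSS of the coding transcript (Hes6 -0.1 kb, chr1:91412929-91413683, first exon), fold enrichment was 11.7 and 9.73 in quiescent libraries, 8.95 and 9.13 in activated libraries and 10.1 and 12.1 in reactivated libraries. The quiescent and activated values did not overlap, and their difference of 0.47 ± 0.17 (log2, SE) missed the threshold (limma, adjusted p = 0.064). About 1 kb upstream, at the start of a non-coding *Hes6* transcript (Hes6 -1.1 kb, chr1:91413961-91414621), the values were 2.07 and 3.75 in quiescent libraries, 6.51 and 6.42 in activated libraries and 6.53 and 6.30 in reactivated libraries. Every quiescent value was below every value of the other states. This site was lower in quiescent than in activated NSPCs, with a difference of -0.99 ± 0.27 (log2, SE; limma, adjusted p = 0.016). The peak of the first quiescent library rested on a pileup of 23 reads (95% Poisson interval 14.6 to 34.5, counting error only) and, without that library, the difference was -0.51 (adjusted p = 0.26). Without the second activated library it was -0.86 (adjusted p = 0.099).

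*Hes1*, the oscillating repressor of neural progenitors, likewise had 2 promoter sites. At the coding TSS (Hes1 -0.1 kb, chr16:30065065-30065440, first exon), fold enrichment was 6.30 and 7.0 in quiescent libraries, 6.23 and 5.09 in activated libraries and 5.42 and 6.45 in reactivated libraries. The quiescent values were above the activated ones by 0.46 ± 0.22 (log2, SE), which missed the threshold (limma, adjusted p = 0.17). The pileups overlapped, at 86 and 141 reads in quiescent and 132 and 90 in activated libraries. Their local backgrounds were 12.8 and 19.3, and 20.3 and 16.9. At Hes1 -1.4 kb (chr16:30063425-30064517), which covers the start of a longer non-coding *Hes1* transcript, the values were 3.63 and 4.13 in quiescent libraries, 6.33 and 5.29 in activated libraries and 6.52 and 6.94 in reactivated libraries. Quiescent libraries were the lowest as deposited. Summits in the site spread over 241 bp, with both quiescent summits apart from those of the other 4 libraries, so another part of the merged site was compared, and after centring the difference from activated NSPCs was -0.36 ± 0.23 (log2, SE; adjusted p = 0.33).

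*Hes5*, a main Notch effector of neural stem cells, had a lower fold enrichment at its promoter. Its site at the TSS (Hes5 -0.2 kb, chr4:154960443-154961077, first exon) had a fold enrichment of 4.33 and 4.84 in quiescent libraries, 4.82 and 3.82 in activated libraries and 6.28 and 5.89 in reactivated libraries. The quiescent and activated values overlapped (difference 0.32 ± 0.23, log2, SE; limma, adjusted p = 0.40). Among genes with a promoter peak in all 6 libraries, *Hes5* stood at percentile 5.00 and *Hes1* at 18.0. These are ranks of the strongest promoter peak over its local background. In the first reactivated library the *Hes5* pileup was 256 reads over 39.95, beside 257 over 24.45 at Hes6 -0.1 kb. In every other library the *Hes5* pileup was below that of Hes6 -0.1 kb. A weaker site within *Hes5* (Hes5 +0.5 kb, chr4:154961358-154961524) had peaks in the reactivated libraries alone, at 2.27 and 2.17.

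The *Hey1* promoter (chr3:8666658-8668130, first exon) had a fold enrichment of 7.40 and 7.11 in quiescent libraries, 9.69 and 7.14 in activated libraries and 11.3 and 10.2 in reactivated libraries. After centring, quiescent and activated NSPCs differed by 0.02 ± 0.18 (log2, SE), with a 95% interval from -0.34 to 0.39 (adjusted p = 0.95). The *Heyl* promoter (Heyl +0.2 kb, chr4:123233463-123233953, first exon) had no peak in quiescent or activated NSPCs, and peaks at 4.27 and 3.19 in the reactivated libraries. Reactivated lists were the longest, and 36.7% of all sites were found in them alone.

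Ordered by the strongest promoter peak, *Hey2* (12.1 ± 0.40, SD, n = 2) was followed by *Hes6* (10.7 ± 1.42), *Hey1* (7.25 ± 0.21), *Hes1* (6.65 ± 0.50) and *Hes5* (4.59 ± 0.36) in quiescent NSPCs. In activated NSPCs the means were 14.0 ± 1.85, 9.04 ± 0.13, 8.41 ± 1.80, 5.81 ± 0.73 and 4.32 ± 0.71, and in reactivated NSPCs 18.5 ± 0.50, 11.1 ± 1.38, 10.7 ± 0.75, 6.73 ± 0.30 and 6.08 ± 0.28. *Hes6* and *Hey1* overlapped in activated and reactivated NSPCs, whereas *Hes1* and *Hes5* did not overlap in any state. For *Hes1* the strongest peak was at Hes1 -0.1 kb in quiescent libraries and at Hes1 -1.4 kb in activated and reactivated libraries. Its means are therefore not of the same site in every state. These levels are enrichments over local background, and no test was run between genes.

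**Figure D2:**
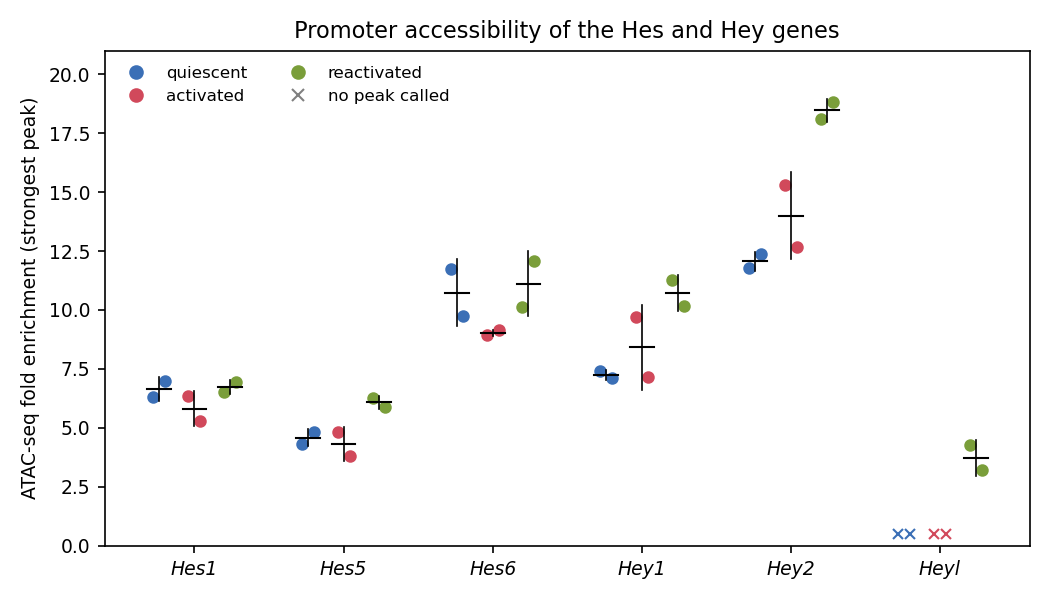
Fold enrichment of the strongest promoter peak (y axis) within 1 kb of the TSS of each gene, with a point for each library, the mean as a bar and the SD over 2 libraries as a line. Crosses near 0 stand for libraries without a called peak. *Hey2* is highest in every state, and *Heyl* has peaks in the reactivated libraries alone, at 4.27 and 3.19.

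Sequences of 3 of these promoters are shown because their sites had the highest fold enrichment (*Hey2*), one of the lowest (*Hes5*) and the difference between quiescent and activated NSPCs (*Hes6*, upstream of the non-coding start). They run 5′ to 3′ on the strand of the gene and end at the base before the annotated start, from RefSeq promoters of GRCm38.p6, where 3 of the 6 members were matched. *Hes1*, *Hey1* and *Heyl* were not matched. Capitals mark exact matches on either strand to 5 motifs: the RBPJ core TGGGAA, the N box CACNAG and the E box CAGCTG bound by helix-loop-helix proteins, the GC-rich SMAD motif GGCGCC and the palindromic NFI motif. None of these matches overlapped another.
Hes5, chr4:154960673-154960922, plus strand: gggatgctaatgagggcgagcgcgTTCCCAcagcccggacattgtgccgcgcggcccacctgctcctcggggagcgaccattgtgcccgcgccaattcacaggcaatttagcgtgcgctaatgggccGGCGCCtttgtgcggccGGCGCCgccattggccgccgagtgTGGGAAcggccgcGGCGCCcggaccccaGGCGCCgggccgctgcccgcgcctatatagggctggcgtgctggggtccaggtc
Hey2, chr10:30842802-30843033, minus strand: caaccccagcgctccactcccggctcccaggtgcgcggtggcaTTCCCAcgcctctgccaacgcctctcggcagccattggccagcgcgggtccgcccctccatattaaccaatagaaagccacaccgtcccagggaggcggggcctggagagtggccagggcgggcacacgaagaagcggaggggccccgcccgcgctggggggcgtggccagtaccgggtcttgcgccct
Hes6, chr1:91414039-91414288, minus strand: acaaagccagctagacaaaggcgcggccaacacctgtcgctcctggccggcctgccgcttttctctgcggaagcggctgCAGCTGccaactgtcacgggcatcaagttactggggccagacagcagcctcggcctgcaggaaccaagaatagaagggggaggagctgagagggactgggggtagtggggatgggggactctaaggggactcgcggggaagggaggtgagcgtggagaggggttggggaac

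The *Hes5* stretch held the RBPJ core at 2 places, from base 25 on the opposite strand and from base 169 on the strand shown, and the SMAD motif at 4. The *Hey2* stretch held 1 RBPJ core, from base 44, and the *Hes6* stretch 1 E box, from base 80. In the 250 bases before the start, 21.6% of all 32851 RefSeq promoters hold the RBPJ core, 9.6% the SMAD motif and 13.0% the E box. In 300 bases around the strongest summit, the RBPJ core was found in 20 of the 40 member sites (50%) and in 27.2% of all sites. The N box was found in 50% of member sites and 49.9% of all sites, the E box in 32.5% and 26.8%, the SMAD motif in 15% and 7.7%, and the NFI motif in 0.0% and 0.1%. Member sites had a higher median GC content (57.2%) than all sites (51.0%). A match describes the letters alone and says nothing of binding.

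Away from the promoters, a site downstream of *Hey1* had tall peaks in quiescent and reactivated NSPCs and low or missing ones in activated NSPCs. Hey1 +25.1 kb (chr3:8641844-8642449, intergenic) had a fold enrichment of 10.2 and 9.33 in quiescent NSPCs, 3.98 in the first activated library and no peak in the second, and 10.1 and 12.2 in reactivated NSPCs. Both quiescent and both reactivated values were more than 2 times the only activated peak, which had a pileup of 29 reads against 85 and 138 in the quiescent libraries. Because a library without a peak has no value, this site was not part of the fit over the 23116 sites with a peak in all 6 libraries. In a fit added after the data were seen, 74759 sites with a peak in at least 2 libraries were used, and a missing peak was set to the fold enrichment at which its library began to call peaks. There, with 1 of its 6 values filled in, Hey1 +25.1 kb stood higher in quiescent than in activated NSPCs by 1.74 (log2). The activated level rests on 1 measured and 1 filled value, so no p-value is given against it. The site also stood higher in reactivated than in activated NSPCs, by 0.86. Against quiescent NSPCs, the centred difference of the reactivated libraries was -0.88 ± 0.23 (log2, SE; limma, adjusted p = 0.00100), in a fit that called 24.7% of all sites lower. As deposited, however, the reactivated mean was above the quiescent one. This direction thus rests on the scaling.

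A site in the 3′ untranslated region of the last *Heyl* exon likewise had its lowest values in activated NSPCs. At Heyl +15.7 kb (chr4:123248996-123249561), fold enrichment was 7.44 and 6.65 in quiescent NSPCs, 3.27 in the second activated library with no peak in the first, and 9.95 and 9.20 in reactivated NSPCs. With the missing value filled in, quiescent NSPCs stood above activated ones by 1.47 (log2), and reactivated NSPCs stood above activated ones by 0.85. The activated level again rests on 1 measured value, so no p-value is given against it. The centred difference of reactivated from quiescent NSPCs was -0.62 ± 0.26 (log2, SE) and was not called (limma, adjusted p = 0.051). As deposited, however, both reactivated values were above the quiescent ones. About 3 kb further downstream, the quiescent rather than the activated libraries were the lowest. At Heyl +18.8 kb (chr4:123251940-123252692, intergenic), neither quiescent library had a peak, the activated libraries had 6.73 and 4.07, and the reactivated libraries 7.87 and 7.03. No test is given by itself for this or any other site without a peak in a whole state, since its level in that state was not measured. Such sites do enter the counts of the fit with missing peaks filled in, given below.

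Upstream of *Heyl*, the other activated-specific sites were Heyl -7.3 kb (chr4:123226052-123226386), at 6.76 and 2.49 in activated and 3.92 and 3.19 in reactivated NSPCs, and Heyl -5.7 kb (chr4:123227674-123228096), at 3.37 and 3.05 and then 5.46 and 3.46. All 3 activated-specific sites had a peak in both reactivated libraries, against 91.9% of such sites in the genome. With lists of equal length this held for 1 of 3 member sites and 2809 of 4878 in the genome. The quiescent-specific site Heyl -14.9 kb (chr4:123218412-123218844) had values of 3.46 and 3.18 in quiescent NSPCs and 2.90 in the second reactivated library alone. Heyl -13.6 kb, which was open in all 6 libraries, stood at 4.05 and 3.82 in quiescent libraries, 5.44 and 4.28 in activated libraries and 7.08 and 7.45 in reactivated libraries, and was not called in any comparison.

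A pair of neighbouring sites upstream of *Hes5* had lower peaks, or none, in activated NSPCs. At Hes5 -12.3 kb (chr4:154948239-154948936, intergenic), fold enrichment was 6.85 and 7.81 in quiescent libraries, 6.03 and 3.32 in activated libraries and 7.15 and 7.79 in reactivated libraries. Both activated values lay below the values of the other states, and the activated libraries were far apart from each other. The site was higher in quiescent than in activated NSPCs by 0.93 ± 0.23 (log2, SE; limma, adjusted p = 0.0084). The call was lost without the second activated library (0.64, adjusted p = 0.10) and without the second quiescent library (0.79, adjusted p = 0.12), without scaling (0.71, adjusted p = 0.10) and with the mean of the peaks of a site (0.19, adjusted p = 0.76). The quiescent-specific site Hes5 -14.4 kb (chr4:154946414-154946690, intergenic) had values of 3.38 and 4.05 in quiescent NSPCs, no activated peak, and 5.34 and 4.28 in reactivated NSPCs. Of the 2 quiescent-specific sites, this one had a peak in both reactivated libraries, against 55.0% of such sites in the genome. With lists of equal length this held for 0 of 2 member sites and 1278 of 5736 in the genome.

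*Hey1* also had an upstream site whose fold enrichment as deposited was highest after reactivation. Hey1 -18.0 kb (chr3:8684898-8685582, intergenic) had a fold enrichment of 4.21 and 2.14 in quiescent libraries, 4.91 and 5.70 in activated libraries and 11.9 and 10.7 in reactivated libraries. The 3 states did not overlap. The summit of the lowest value, that of the second quiescent library, lay 409 bp from the median summit, so it is another peak of the merged site than in the other 5 libraries. Of the 14 member sites tested, it was the only one higher in reactivated than in quiescent NSPCs, by 1.03 ± 0.27 (log2, SE; limma, adjusted p = 0.0043). The call was lost without the second quiescent library (0.60, adjusted p = 0.12) and reached an adjusted p of 0.0501 without the first reactivated library, and it was also lost with the mean of the peaks of a site in place of the highest (0.63, adjusted p = 0.24). The centred difference between reactivated and activated NSPCs was 0.44 ± 0.27 and was not called (adjusted p = 0.24). Against activated NSPCs, the quiescent level differed by -0.60 ± 0.27 (adjusted p = 0.15). In the fit with missing peaks filled in, with none of its own values filled, the site was called lower in quiescent NSPCs (-0.735, limma, adjusted p = 0.040). In quiescent NSPCs the *Hey1* sites stood apart, since Hey1 +25.1 kb stood at 9.77 ± 0.62 and Hey1 -18.0 kb at 3.17 ± 1.46 (SD, n = 2).

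**Figure D3:**
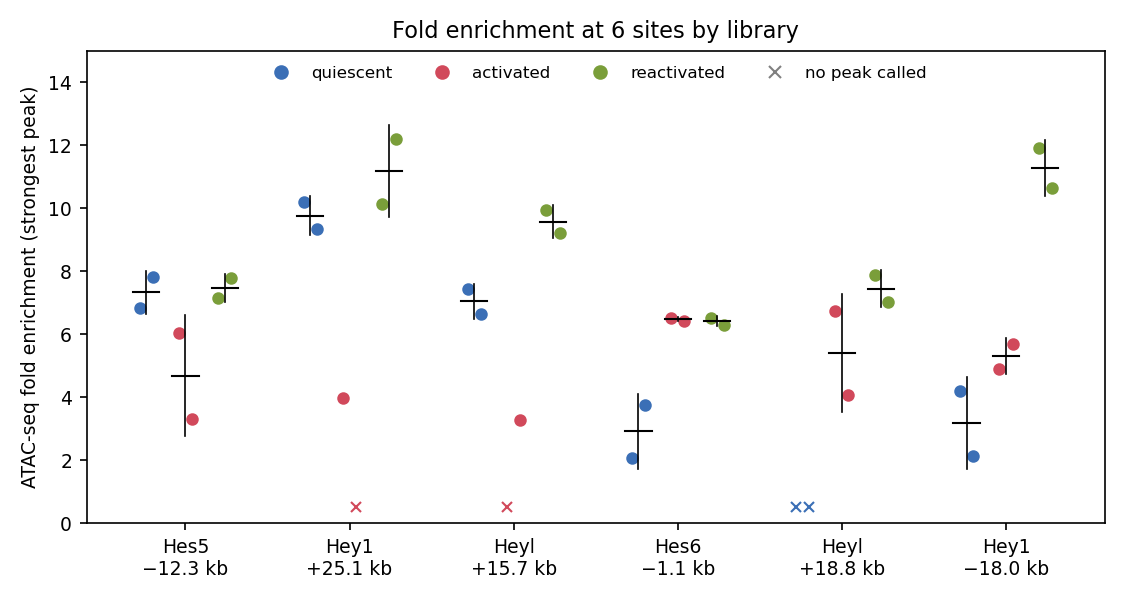
Fold enrichment (y axis) at 6 sites in each library, with the mean as a bar and the SD over 2 libraries as a line, and crosses near 0 for libraries without a called peak. The activated values are lowest at Hes5 -12.3 kb, Hey1 +25.1 kb and Heyl +15.7 kb, and the quiescent values are lowest or missing at Hes6 -1.1 kb, Heyl +18.8 kb and Hey1 -18.0 kb.

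The sequence around the strongest summit of 3 of these sites is given for the plus strand of GRCm38.p6, from sites outside promoters and exons whose values differed between states as described above. Capitals mark the same 5 motifs.
Hey1 +25.1 kb, chr3:8642054-8642353: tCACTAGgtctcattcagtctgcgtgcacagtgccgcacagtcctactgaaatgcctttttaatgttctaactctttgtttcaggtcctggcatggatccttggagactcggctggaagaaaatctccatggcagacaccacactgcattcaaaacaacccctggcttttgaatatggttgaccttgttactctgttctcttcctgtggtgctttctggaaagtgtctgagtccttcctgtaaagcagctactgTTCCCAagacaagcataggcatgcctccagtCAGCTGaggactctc
Hes5 -12.3 kb, chr4:154948289-154948588: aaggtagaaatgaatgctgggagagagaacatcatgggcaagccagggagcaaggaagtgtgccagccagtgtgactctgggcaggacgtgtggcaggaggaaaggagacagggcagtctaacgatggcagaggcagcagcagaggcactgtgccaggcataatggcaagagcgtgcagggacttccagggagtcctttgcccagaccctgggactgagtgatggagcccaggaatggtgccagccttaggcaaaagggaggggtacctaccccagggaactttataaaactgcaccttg
Heyl +18.8 kb, chr4:123252310-123252609: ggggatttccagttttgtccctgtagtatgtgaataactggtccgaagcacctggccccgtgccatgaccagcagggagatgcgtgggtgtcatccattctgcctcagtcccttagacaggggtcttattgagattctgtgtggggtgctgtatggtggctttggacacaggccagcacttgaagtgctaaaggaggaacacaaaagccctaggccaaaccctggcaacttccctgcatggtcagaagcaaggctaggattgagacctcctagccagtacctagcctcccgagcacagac

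Hey1 +25.1 kb held 1 RBPJ core, from base 255, with an N box from base 2 and an E box from base 286. The windows at Hes5 -12.3 kb and Heyl +18.8 kb held none of the 5 motifs.

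Across the 14 member sites with a peak in all 6 libraries, 1 was called higher and 1 lower in quiescent than in activated NSPCs, against 7.05% and 6.35% of 23116 sites (13.4% in either direction). Their median difference was -0.03, and that of all sites 0.07 (log2). In each of the 3 comparisons 5 of the 14 had an unadjusted p under 0.05, beside 27.4% of all sites in this comparison, 36.6% in reactivated against activated NSPCs and 46.7% in reactivated against quiescent NSPCs. In reactivated against activated NSPCs, none was higher (7.66% of all sites) and 1 was lower (14.5%, and 22.2% in either direction). The lower site was Hes1 -8.2 kb (chr16:30056961-30057390, intergenic), with 8.25 and 5.82 in activated and 8.35 and 5.70 in reactivated NSPCs, and 4.80 and 4.89 in quiescent NSPCs. The activated and reactivated values overlapped as deposited, and the difference of -0.66 ± 0.23 (log2, SE; adjusted p = 0.045) lost its call whichever of the 6 libraries was left out (adjusted p from 0.052 to 0.44) and without scaling (-0.01). In reactivated against quiescent NSPCs, 1 site was higher (11.5%) and 3 were lower (25.7%, and 37.2% in either direction). The lower sites were Hes1 -0.1 kb (-1.04 ± 0.22, limma, adjusted p = 0.00089), Hes6 -0.1 kb (-0.82 ± 0.17, adjusted p = 0.00060) and Hes5 -12.3 kb (-0.85 ± 0.23, adjusted p = 0.0065). At Hes1 -0.1 kb and Hes6 -0.1 kb, both the pileup and its local background were higher in reactivated libraries. Quiescent pileups at Hes1 -0.1 kb were 86 and 141 reads over 12.8 and 19.3. Reactivated ones were 179 and 200 over 32.2 and 30.2. At Hes6 -0.1 kb, pileups were 133 and 174 in quiescent and 257 and 258 in reactivated libraries. These calls are thus relative to local background as well as to the library median. The call at Hes5 -12.3 kb was lost without the second quiescent library (adjusted p = 0.093) and without the first reactivated library (adjusted p = 0.053), and with the mean of the peaks of a site the difference turned to 0.03. The call at Hes6 -0.1 kb was lost with the mean of the peaks of a site (-0.59, adjusted p = 0.39). These comparisons share libraries with each other. In the fit with missing peaks filled in, in which the filled values also enter the centring and move every site alike, 2 of 34 member sites were called higher and 16 lower in reactivated than in activated NSPCs, beside 2.30% and 23.0% of all sites. These counts include sites with filled values, for some of them in a whole state. Hes5 +0.5 kb, with peaks in the reactivated libraries alone, was counted as lower in them (-1.04), which is no measured change. Against quiescent NSPCs 1 was higher and 11 were lower, beside 6.34% and 24.7%. The lower ones again included Hes5 +0.5 kb, and also Hes6 -9.1 kb, which had no reactivated peak. In quiescent against activated NSPCs 3 were higher and 3 lower, beside 4.76% and 7.05%. The lower ones included Heyl +18.8 kb, whose quiescent values were both filled in. No result is drawn from these counts, since filled values are not measured levels.

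Differences from reactivated NSPCs are relative to the level of the whole library. As deposited, fold enrichment in reactivated libraries was higher by a median of 0.55 than in activated and of 0.72 than in quiescent libraries (log2), and the quiescent libraries were 0.15 below the activated ones. Without scaling, none of the 14 sites was called lower in reactivated NSPCs, 4 were called higher than in activated and 8 higher than in quiescent NSPCs, beside 52.6% and 68.2% of all sites. Hes6 -0.1 kb and Hes5 -12.3 kb then changed sign, to 0.05 and 0.03, and Hes1 -0.1 kb stood at -0.17 (adjusted p = 0.54).

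**Figure D4:**
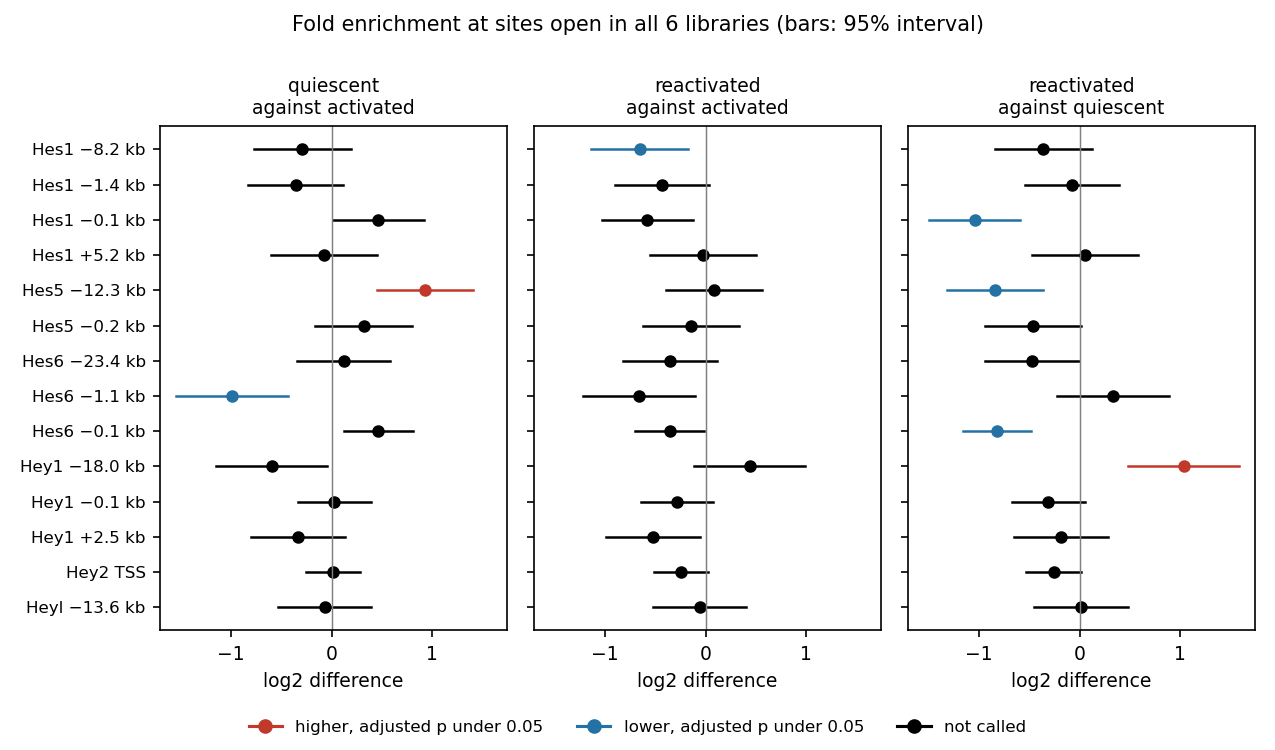
Difference in log2 fold enrichment, after centring each library on its median, at the 14 member sites with a peak in all 6 libraries. Points are limma estimates, bars their 95% intervals, and colours mark an adjusted p under 0.05 over 23116 sites. Hes5 -12.3 kb and Hes6 -1.1 kb are called on opposite sides of 0 in quiescent against activated NSPCs.

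The remaining sites are given by their values. Hes1 +5.2 kb (chr16:30070130-30070918, intergenic) was open in all libraries, from 3.49 in a quiescent to 9.74 in a reactivated library. Hey1 +2.5 kb, in an exon, ranged from 2.21 to 3.76. Hes6 -23.4 kb, in an intron of *Per2*, ranged from 5.12 to 7.74, and 2 of its 12 peaks were nearer to the TSS of *Hes6* than to that of another gene. Hes5 -2.5 kb had 1 peak in each of quiescent and activated NSPCs (3.0 and 4.40) and 2 in reactivated NSPCs (5.19 and 5.57). *Hey2* had no site outside its promoter in quiescent or activated NSPCs.

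With lists shortened to equal length, 1 member site in place of 10 was found in reactivated NSPCs alone, and 6322 of 65838 sites in place of 39738 of 108367 in the genome. The 10 sites were spread over 5 genes, with 3 at *Heyl*, 2 each at *Hes6*, *Hey1* and *Hey2*, and 1 at *Hes5*, and none at *Hes1*. Their fold enrichment ran from 2.17 at Hes5 +0.5 kb to 6.71 at Hes6 -15.6 kb, in an intron of *Per2*, and 3 of them had a peak in the second reactivated library alone. The *Hey1* and *Hey2* sites of this kind farthest upstream were Hey1 -45.8 kb, at 4.67 and 4.71, and Hey2 -40.7 kb, at 3.47 and 3.99. The 7 sites with a peak in a single quiescent or activated library belonged to *Hes1* (4) and *Heyl* (3). Their single peaks ran from 2.30 to 3.95, and the highest reactivated peak among them was 4.79, at Hes1 -42.3 kb. Hes6 -9.1 kb had 1 quiescent peak (2.14) and 1 activated peak (2.65), and none in reactivated NSPCs.

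H3K4me3 covered the TSS of 5 of the 6 genes in both states, and no H3K4me3 region lay at *Heyl*. Fold enrichment over input was higher in quiescent than in activated NSPCs at all 5, at 42.9 and 35.6 for *Hes1*, 31.4 and 27.9 for *Hes5*, 29.0 and 25.2 for *Hes6*, 33.1 and 28.7 for *Hey1*, and 47.6 and 34.1 for *Hey2*. Over all regions found in both libraries, 65.4% had a higher value in quiescent NSPCs. The ratios of quiescent to activated ran from 1.12 at *Hes5* to 1.40 at *Hey2*, beside a median of 1.08 over 15572 regions found in both libraries. None passed 1.5, a fold that 6.52% of regions passed in this direction and 1.39% in the other. With 1 library a state there is no replicate check. The region over *Hes5* also covers the TSS of *Pank4*, its neighbour, and its midpoint was nearer to that gene, so the rule for members gave it to *Pank4*. It is described here because it covers the start of *Hes5*.

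The widths differed more than the heights at 2 genes. At *Hes1*, activated NSPCs had a single region of 7946 bp (chr16:30063157-30071102). Quiescent NSPCs had a region of 5644 bp (chr16:30063085-30068728) and a separate one of 1381 bp (chr16:30069700-30071080, fold enrichment 8.78), which lies over the open site Hes1 +5.2 kb. At *Hey1* the region was 6613 bp in quiescent and 4952 bp in activated NSPCs, with the difference at its downstream end. The regions were 5942 and 5508 bp at *Hes5*, 3920 and 3547 bp at *Hes6*, and 1736 and 1513 bp at *Hey2*, beside medians of 1734 and 1708 bp over each list. *Hes1*, *Hes5* and *Hey1* were thus among the widest regions, above percentile 98 in both lists, and *Hey2* combined the highest enrichment of quiescent NSPCs among the 5 with a width near the median. Of the 40 ATAC-seq sites, 11 overlapped H3K4me3 regions of both states (20.3% of all sites), with 4 at *Hes1*, 2 each at *Hes5*, *Hes6* and *Hey1*, 1 at *Hey2* and none of 12 at *Heyl*. Hey1 +25.1 kb, Hey1 -18.0 kb, Hes5 -12.3 kb and Heyl +15.7 kb had none.

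**Figure D5:**
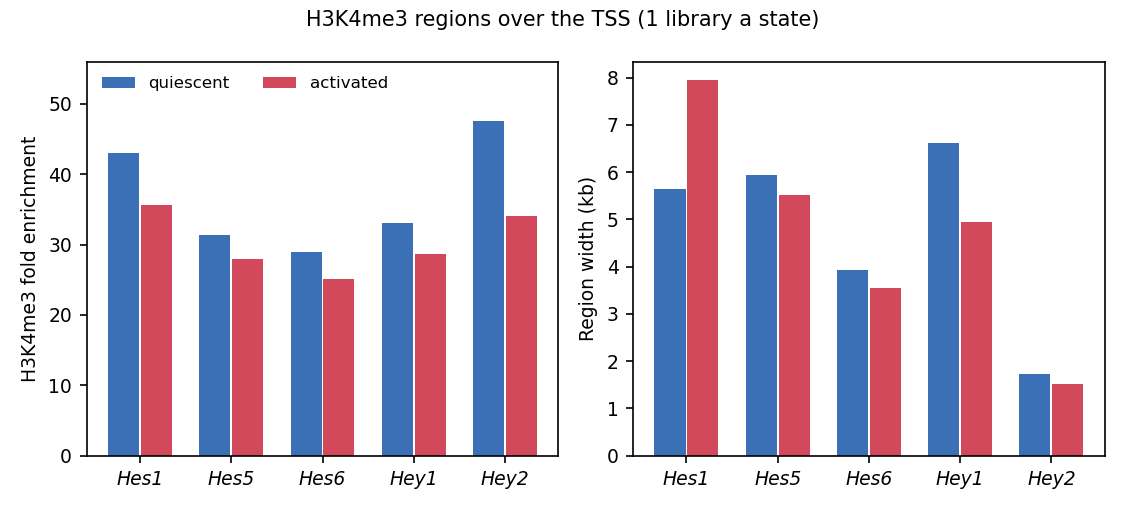
H3K4me3 regions over the TSS of 5 genes in quiescent and activated NSPCs, with fold enrichment over input on the left and width in kb on the right (1 library a state, no error bars). Enrichment is higher in quiescent NSPCs at all 5 genes, as at 65.4% of all regions, and width is larger in activated NSPCs at *Hes1* alone.

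Of 38 other Notch pathway genes, 27 had a promoter site in all 6 libraries and 4 (*Notch4*, *Hes2*, *Hes7* and *Helt*) had no promoter peak in any. In quiescent against activated NSPCs, 3 of the 27 were higher and none lower, beside 7.05% and 6.35% of all sites. *Dtx1*, a Notch regulator of the Deltex family, had 5.67 and 5.28 in quiescent libraries against 3.19 and 3.55 in activated ones (0.92 ± 0.24, adjusted p = 0.012). The receptor *Notch3* had 6.42 and 4.51 against 4.11 and 3.34 (0.76 ± 0.23, adjusted p = 0.031), and *Mib1*, a ligase that acts on Notch ligands, 14.4 and 13.3 against 12.2 and 10.3 (0.53 ± 0.14, adjusted p = 0.011). The ligand gene *Dll3*, chosen after its values were seen, had no promoter peak in quiescent NSPCs, 5.66 and 5.34 in activated and 8.58 and 8.81 in reactivated NSPCs.

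In reactivated against activated NSPCs, none of the 27 was higher and 5 were lower, beside 7.66% and 14.5% of all sites. The 5 were *Lfng* (-0.71), which modifies Notch receptors with sugars, the co-activator genes *Maml2* (-0.68) and *Maml3* (-0.65), *Dtx4* (-0.60) and the protease gene *Adam17* (-0.39). As deposited, 3 of the 5 had the opposite direction, such as *Adam17* at 17.2 and 14.2 in activated libraries and 18.3 and 19.1 in reactivated ones. In reactivated against quiescent NSPCs, none was higher and 15 were lower, beside 11.5% and 25.7% of all sites. The 15 were led by *Dtx1* (-1.40), *Lfng* (-0.99), the gamma-secretase subunit gene *Psenen* (-0.92), *Mib1* (-0.78), the ligand gene *Jag1* (-0.77) and *Adam10* (-0.70). *Dtx1* had 3 promoter sites, and the tested one stood at 3.39 and 4.30 in reactivated libraries. The strongest *Dtx1* promoter peaks of these libraries were 4.50 and 7.14. As deposited, 12 of the 15 had the opposite direction, such as *Mib1* at 13.9 and 15.6 in reactivated libraries beside the quiescent values above. The median difference of the 27 was -0.54, beside -0.15 over all sites, and is again relative to the library median. The 27 are promoter sites, whereas all sites include distal ones. No share was taken over promoters alone for any of these comparisons, so whether the 27 differ from other promoters was not tested.

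The protein-coding genes whose promoter levels were most like those of the members over the 6 libraries were *Pknox2* for *Hes1*, *Camk2n2* and *Tns3* for *Hes5*, *Kpnb1* and *Set* for *Hes6*, *Terf2* and *Sipa1l1* for *Hey1*, and *Strap* and *Ankrd49* for *Hey2*. Likeness was the Euclidean distance of centred log2 values of the strongest promoter peak among 11450 other genes. For *Hes1* this peak lay at different sites between states. The smallest was 0.065 for *Strap*, at 11.8 and 12.7, 15.7 and 13.0, and 18.0 and 19.2 in quiescent, activated and reactivated libraries, and the largest of these pairs was 0.30 (*Hes5* and *Tns3*).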

How the data were processed

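ATAC-seq (2 libraries a state) and H3K4me3 ChIP-seq (1 a state) of mouse NSPCs were analysed as lists of peaks. The study's methods call replicates biologically independent. According to the submitters' processing notes, reads were handled with Trim Galore 0.4.0, Bowtie2 2.2.5, Picard 1.88, SAMtools 1.3.1 and HOMER and aligned to mm10, and the authors called peaks with MACS in each library. Peak names of the reactivated lists carry the word downsample. The methods give a shorter time in BMP4 before ATAC-seq than the labels. The deposited fold enrichment is the authors' linear ratio of pileup to background, not normalized between libraries. The −log10 p-values and q-values that the authors deposited grow with depth. The deposited score and summit offset follow from them, and the score was not used. Inputs (2 libraries) were not analysed here.

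Peaks on autosomes, X and Y were merged, annotated with GENCODE M21 and given to members. Log2 fold enrichment of the highest peak of a site was centred on each library's median at 23116 sites and fitted with limma 3.58.1 (R 4.3.3, eBayes with trend) over 6 libraries, with Benjamini-Hochberg adjustment over all sites and a threshold of 0.05. On simulated quiescent against activated data of 23116 sites, 20% of changes of 1 and 79% of changes of 2 (log2) were recovered, with 1% false. Pileups were recovered from fold enrichment and p to within 2e-04, except at 1 member peak (*Hey2* TSS, second reactivated library), for which none is given. H3K4me3 regions had no test. The members and lists were chosen with earlier results of these data known. Named were all member promoters, state-specific or called sites and H3K4me3 regions, the 2 most alike genes per member (1 of them is not reported here), and at most 6 called pathway genes a comparison. Shown sequences come from GRCm38.p6 around the strongest summit or from RefSeq promoters. Python 3.11.15, numpy 2.4.6, pandas 2.3.3, scipy 1.17.1, pysam 0.24.0 and matplotlib 3.10.9 were used. The alternatives were another merging, distance, TSS, threshold, scaling, variance model, value of a site and replicate block, lists of equal length, and each library left out. The fit with missing peaks filled in was added after the data were seen.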

Additional observations from a re-analysis of the deposited data

How the results depend on the processing

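The number of member sites fell to 26 with a minimum −log10 q of 10 and to 26 with lists of equal length, of which 1 was in reactivated NSPCs alone. Leaving out 1 library gave 37 to 41 sites, 15 to 18 shared, 2 to 5 quiescent-specific and 3 to 5 activated-specific sites. Without the second quiescent library there were 5 quiescent-specific sites, and without either activated library 5 activated-specific sites. No H3K4me3 ratio at a member passed the fold under any alternative, the RBPJ core was in 37.5% of member sites and 19% of all sites with 200 bases, and promoters of 2 kb gave 4, 5 and 16 calls at pathway genes. In quiescent against activated NSPCs, 3098 sites were called, with 1116 at the stricter q, 414 with the mean of a site's peaks, 8828 with missing peaks filled in, and 1742 to 2523 with 1 library left out. In reactivated against activated NSPCs, 5134 were called, with 2746, 1405 and 18941 under the same alternatives, 12275 without scaling (12166 higher) and 1054 to 5144 with 1 library left out. In reactivated against quiescent NSPCs, 8589 were called, with 4751, 3271 and 23179, 15882 without scaling (15756 higher) and 4496 to 9320 with 1 library left out. The cause was not tested. Higher calls made up 1771 of 5134 and 2649 of 8589, and with quantile normalization 2152 of 4214 and 3150 of 6401. For quiescent against activated NSPCs, higher calls were 1629 of 3098, 1071 of 2464 with quantile normalization and 442 of 2628 without scaling. Hes6 -0.1 kb in reactivated against quiescent NSPCs turned to 0.051 without scaling, and Hes5 -12.3 kb to 0.029 without scaling and 0.032 with the mean of its peaks. With the mean of a site's peaks, the calls at Hes6 -1.1 kb (-1.16, adjusted p = 0.062) and Hes5 -12.3 kb (0.19, adjusted p = 0.76) between quiescent and activated NSPCs were lost. Those at Hey1 -18.0 kb (0.63, adjusted p = 0.24) and Hes6 -0.1 kb (-0.59, adjusted p = 0.39) between reactivated and quiescent NSPCs were lost too. Same-numbered libraries did not deviate together at the 23116 sites (r = -0.00133, 0.0423 and -0.0173), which cannot exclude a shared preparation. A replicate block gave 3231, 5290 and 8731 calls and changed no call at a member site. Depth limits a site under 16 to 25 reads of pileup, or under more where the local background is higher.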
